A study of Homo sapiens with 66 samples.

Results

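The genes described here are the 36 that encode the aminoacyl-tRNA synthetases other than the prolyl enzymes, together with the scaffold proteins *AIMP1* and *AIMP2*. They were chosen by name from the 20167 genes in the count table, with earlier results of these data known. They comprise 19 cytosolic synthetase genes, 15 mitochondrial synthetase genes and 2 scaffold genes. All 36 were found and passed the filter on low counts in each of the 36 comparisons made. RNA was measured by poly(A)-selected, strand-directional sequencing in 66 libraries from human multiple myeloma (plasma cell cancer) cell lines, in 22 groups of 3 replicates. AMO1 cells (labelled AMO-1 WT) received DMSO, NCP26, halofuginone (HFG, MAZ1392), halofuginol (MAZ1805), NCP22 or carfilzomib (CFZ), and L363-CFZr cells (labelled CFZr L363), a carfilzomib-resistant derivative of L363, received the same agents except CFZ. Cells were harvested after 6 h or 24 h. The labels give a dose of 1 µM for NCP26, NCP22, HFG and halofuginol, and a figure legend of the study gives 10 nM for CFZ. NCP26 and HFG inhibit prolyl-tRNA synthetase at different sites of the enzyme, NCP22 is a pyrazinamide related to NCP26, halofuginol is the alcohol form of the HFG ketone, and CFZ inhibits the proteasome. The study chose NCP22 and halofuginol as compounds against the same enzyme too, and describes their potency as lower or absent. Each line is 1 genetic background, and the labels do not say that the 3 replicates of a group were separate cultures, so the p-values measure only the spread between these samples.

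Aminoacyl-tRNA synthetases join each amino acid to its tRNA, which is the step that sets the genetic code during translation. Most amino acids have separate nuclear genes for a cytosolic and a mitochondrial enzyme, while *GARS1* and *KARS1* supply both compartments. In the cytosol, *IARS1*, *KARS1*, *LARS1*, *MARS1*, *QARS1*, *RARS1* and others assemble into the multisynthetase complex around the scaffolds *AIMP1* and *AIMP2*. An uncharged tRNA activates the kinase GCN2, which phosphorylates eIF2α and favours translation of the transcription factor ATF4. ATF4 binds C/EBP-ATF response elements in promoters of amino acid transporters, amino acid biosynthesis genes and several cytosolic synthetase genes. Plasma cells have an unusually high demand for protein synthesis because they secrete immunoglobulin.

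The core letters of a C/EBP-ATF element were looked for in the RefSeq promoter table (GRCh38.p14, 250 bases before to 50 after each annotated start) for the 30 of 36 genes with an entry. The string TGATGNAA, read on both strands, was present in 7 of the 15 cytosolic genes with an entry (46.7%), 1 of 13 mitochondrial genes (7.69%) and neither scaffold gene. Of the 23 genes with an entry in a list of other amino acid response genes, 6 held it (26.1%). It occurred in 3.62% of all 35116 promoters and in 4.46% of the 27305 genes in the table. The longer string TGATGNAAT, which contains it, was present in *TARS1* and *GARS1*, in 0 of the 23 amino acid response genes and in 0.991% of all promoters. The shorter string was chosen after the longer one had been counted. The 8 windows are shown because the genes that rose most with NCP26 and HFG include 5 of them. Of the other genes that rose most, *WARS1* and *SARS1* had an entry without the string, and *YARS1* had no entry. *WARS1* had the highest mean change over the NCP26 comparisons with DMSO. Each window is written on the gene's own strand, and capitals mark the match. The string itself is on that strand in *NARS1* and *YARS2*. In the others the capitals are its reverse complement, so the string lies on the opposite strand. A match is a description of the letters only.
*TARS1*, chr5:33440957-33440984 (+): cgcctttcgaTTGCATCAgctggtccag
*GARS1*, chr7:30594835-30594862 (+): tacgcggcgaTTTCATCAtgctccgagc
*IARS1*, chr9:92293693-92293720 (-): tttcagcgcgTTGCATCAcctccgtgcg
*CARS1*, chr11:3057408-3057435 (-): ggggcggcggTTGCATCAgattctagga
*MARS1*, chr12:57488054-57488081 (+): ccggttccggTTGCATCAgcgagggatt
*AARS1*, chr16:70289676-70289703 (-): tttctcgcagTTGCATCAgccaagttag
*NARS1*, chr18:57621805-57621832 (-): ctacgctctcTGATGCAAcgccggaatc
*YARS2*, chr12:32756077-32756104 (-): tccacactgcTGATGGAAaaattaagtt

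The libraries held 1666325 to 5761682 counts in AMO1 and 2487872 to 6596543 in L363-CFZr. Plasma cell genes summed to 4507.7–9978.5 CPM (counts scaled to the size of each library) in AMO1 and 4613.0–9587.9 CPM in L363-CFZr, against at most 11.7 CPM for markers of other cell types. In 13 libraries of 11 groups a transcript annotated as the olfactory receptor *OR1N1* exceeded 250 CPM. The sample numbers in the column names fall into 3 sets, whose meaning the labels do not give. All HFG and halofuginol libraries of L363-CFZr at 6 h are in another set than their DMSO controls, and so are all NCP26, HFG, NCP22 and halofuginol libraries of AMO1 at 24 h, so set and treatment cannot be told apart within those comparisons. Of CFZ at 24 h, replicate 1 shares the set of its DMSO controls and replicates 2 and 3 do not.

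In bulk samples, fewer cells of a type and less RNA per cell cannot be told apart. In DMSO, the cytosolic genes were expressed well above the mitochondrial ones. Levels per kilobase of transcript had a cytosolic median of 100.7 CPM per kb in AMO1 at 6 h and 86.4 at 24 h, and of 73.0 and 62.5 in L363-CFZr, while the mitochondrial medians were 13.6, 11.6, 15.2 and 8.73 CPM per kb. In AMO1 at 6 h the highest was *WARS1*, encoding tryptophanyl-tRNA synthetase, at 306.0 CPM per kb, and in L363-CFZr at 6 h it was *QARS1* (glutaminyl) at 165.8. *TARS3*, a second cytosolic threonyl enzyme, was the lowest of the cytosolic genes in all 4 DMSO groups at 5.71–11.1 CPM per kb, and the mitochondrial *WARS2* was the lowest of all at 1.9–3.43. Replicates of the abundant genes were close, with a median coefficient of variation over groups of 3.39% for *GARS1* and 4.39% for *WARS1*, compared with 16.6% for *WARS2*, whose counts per library were 9 to 75.

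To ask how the synthetase genes respond to inhibition of prolyl-tRNA synthetase, each compound was compared with DMSO at the same time in the same line with the quasi-likelihood test of edgeR. The p-values were adjusted by Benjamini-Hochberg over all genes tested, and genes with an adjusted p under 0.05 passed. Fold changes are log2 ± SE. In AMO1 at 6 h, 8 of 19 cytosolic genes rose and 3 fell with NCP26, beside 18.1% and 19.2% of the 10666 genes tested. With HFG, compared with the same DMSO libraries, 9 rose and 5 fell, beside 27.7% and 26.6% of 10737 genes. The median cytosolic fold change was 0.16 with NCP26 and 0.19 with HFG, against -0.01 and 0.01 over all genes. Those that rose with NCP26 were *AARS1*, *CARS1*, *GARS1*, *IARS1*, *SARS1*, *TARS1*, *WARS1* and *YARS1*, which charge alanine, cysteine, glycine, isoleucine, serine, threonine, tryptophan and tyrosine, and with HFG *LARS1* (leucyl) also passed the test. *GARS1* read 393.1, 387.1 and 379.9 CPM in DMSO, 637.4, 713.4 and 700.8 CPM in NCP26 and 655.2, 654.7 and 639.9 CPM in HFG. All 6 treated libraries lay above all 3 controls, with fold changes of 0.83 ± 0.10 (adjusted p = 5.37e-05) and 0.79 ± 0.06 (3.98e-08). *WARS1* moved less, from 841.7, 798.3 and 782.5 CPM in DMSO to 990.8, 1024.2 and 1123.2 CPM in NCP26 (0.38 ± 0.10, adjusted p = 0.00857). Leaving out the libraries high in *OR1N1*, of which 2 are HFG and 1 is DMSO, left 1 HFG library, so no count is given for that fit.

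At 24 h in AMO1, 12 of 19 cytosolic genes rose and 6 fell with NCP26, beside 29.8% and 30.9% of 10787 genes, and with HFG 14 rose and 3 fell, beside 28.5% and 30.5% of 10723 genes. The cytosolic medians were 0.35 and 0.46, against 0.01 and 0.00 over all genes. *WARS1* read 367.2, 361.7 and 392.9 CPM in DMSO, 1100.1, 1056.3 and 1080.5 CPM in NCP26 and 654.4, 619.3 and 629.7 CPM in HFG. The 3 groups were fully separated, with NCP26 highest, and the changes against DMSO were 2.87-fold (1.52 ± 0.04, adjusted p = 2.27e-23) and 1.69-fold (0.76 ± 0.05, 2.13e-10). *AARS1* kept the same order, at 324.3, 328.9 and 322.2 CPM in DMSO, 842.2, 835.2 and 833.7 CPM in NCP26 (2.57-fold) and 597.5, 591.5 and 620.1 CPM in HFG (1.85-fold). For *GARS1*, *IARS1* and *CARS1* the order of the treated groups was the opposite. The deviations of *CARS1* from its group means followed those of *OR1N1* (Pearson's r = 0.84 over the libraries). HFG replicate 1 was high in *OR1N1* (1460.8 CPM), and no NCP26 library of this group was. *GARS1* rose from 363.9, 402.1 and 382.9 CPM to 778.0, 770.6 and 747.8 CPM with NCP26 and 904.4, 1007.6 and 996.5 CPM with HFG. *IARS1* rose from 242.8, 226.8 and 247.2 CPM to 418.3, 448.7 and 473.0 CPM and to 552.4, 546.0 and 590.0 CPM. *SARS1*, at 186.7, 192.3 and 196.1 CPM in DMSO, reached 403.2, 373.1 and 370.4 CPM with NCP26 and 421.8, 404.4 and 396.6 CPM with HFG, so that the treated groups overlapped each other but not the controls. A fit of all AMO1 groups with a term for the sample-number set called 17 of the 36 genes for each compound, in place of 28 and 27. That term rests on the CFZ group at 24 h alone, the only AMO1 group with libraries of both sets, whose replicate 2 stood apart.

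In L363-CFZr the median rises were larger. At 6 h, NCP26 raised 11 cytosolic genes and lowered 2, beside 9.81% and 8.99% of 10701 genes, and HFG raised 11 and lowered 4, beside 26.9% and 27.5% of 10478 genes. The cytosolic medians were 0.65 and 0.57, against 0.01 and 0.00 over all genes. With each compound, against the same DMSO libraries, the 11 comprised the 8 named above with *LARS1*, *MARS1* (methionyl) and *NARS1* (asparaginyl). *GARS1* rose from 400.3, 383.2 and 408.4 CPM to 1280.4, 1278.2 and 1252.1 CPM with NCP26 (3.24-fold, 1.70 ± 0.10, adjusted p = 1.61e-06) and to 1382.9, 1275.4 and 1344.8 CPM with HFG. *CARS1* went from 75.7, 67.2 and 75.4 CPM to 217.0, 227.3 and 187.4 CPM with NCP26, a change of 1.55 ± 0.11 with no overlap. *TARS1*, tightly spread at 194.1, 194.3 and 194.0 CPM in DMSO, reached 465.1, 515.5 and 476.8 CPM with NCP26 and 507.3, 475.3 and 480.4 CPM with HFG. Leaving out replicate 1 or replicate 3 of DMSO brought the NCP26 count over all 36 genes from 17 to 11 in each case. For HFG, a fit of all L363-CFZr groups with a term for the sample-number set gave 16 genes in place of 25. That term rests on the NCP22 group at 6 h alone.

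At 24 h in L363-CFZr, 9 cytosolic genes rose and 0 fell with NCP26, beside 2.71% and 4.38% of 10676 genes, and 8 rose and 0 fell with HFG, beside 0.592% and 0.573% of 10469 genes. The medians of 0.89 and 0.66 were the highest of any comparison with DMSO, against 0.00 and -0.02 over all genes. *WARS1* read 59.0, 63.9 and 63.1 CPM in DMSO, 384.8, 378.8 and 340.2 CPM in NCP26 and 234.5, 261.7 and 235.9 CPM in HFG. These groups were separated by several times their spread, with a 5.98-fold rise (2.58 ± 0.13, adjusted p = 0.000164) and a 3.93-fold rise (1.98 ± 0.12, 0.00106). DMSO replicate 2 of this group stood apart from its fellows, with *SARS1* at 165.0, 98.3 and 155.4 CPM, *TARS1* at 182.5, 133.5 and 189.0 CPM and *CARS1* at 61.3, 124.9 and 57.5 CPM in replicates 1 to 3. *SARS1* rose to 410.8, 431.4 and 438.7 CPM with NCP26 (1.62 ± 0.21, adjusted p = 0.0055, and 1.44 without the libraries high in *OR1N1*). *CARS1* did not pass, at 1.13 ± 0.31 with NCP26 (adjusted p = 0.0702) and 0.66 ± 0.29 with HFG (0.314), and read 1.40 and 1.10 without those libraries. Over all 36 genes, leaving out DMSO replicate 2 raised the count from 10 to 17 with NCP26 and from 8 to 13 with HFG. Without DMSO replicate 1 or 3 the HFG count was 2, and leaving out HFG replicate 1, 2 or 3 brought it to 1.

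**Figure D1:**
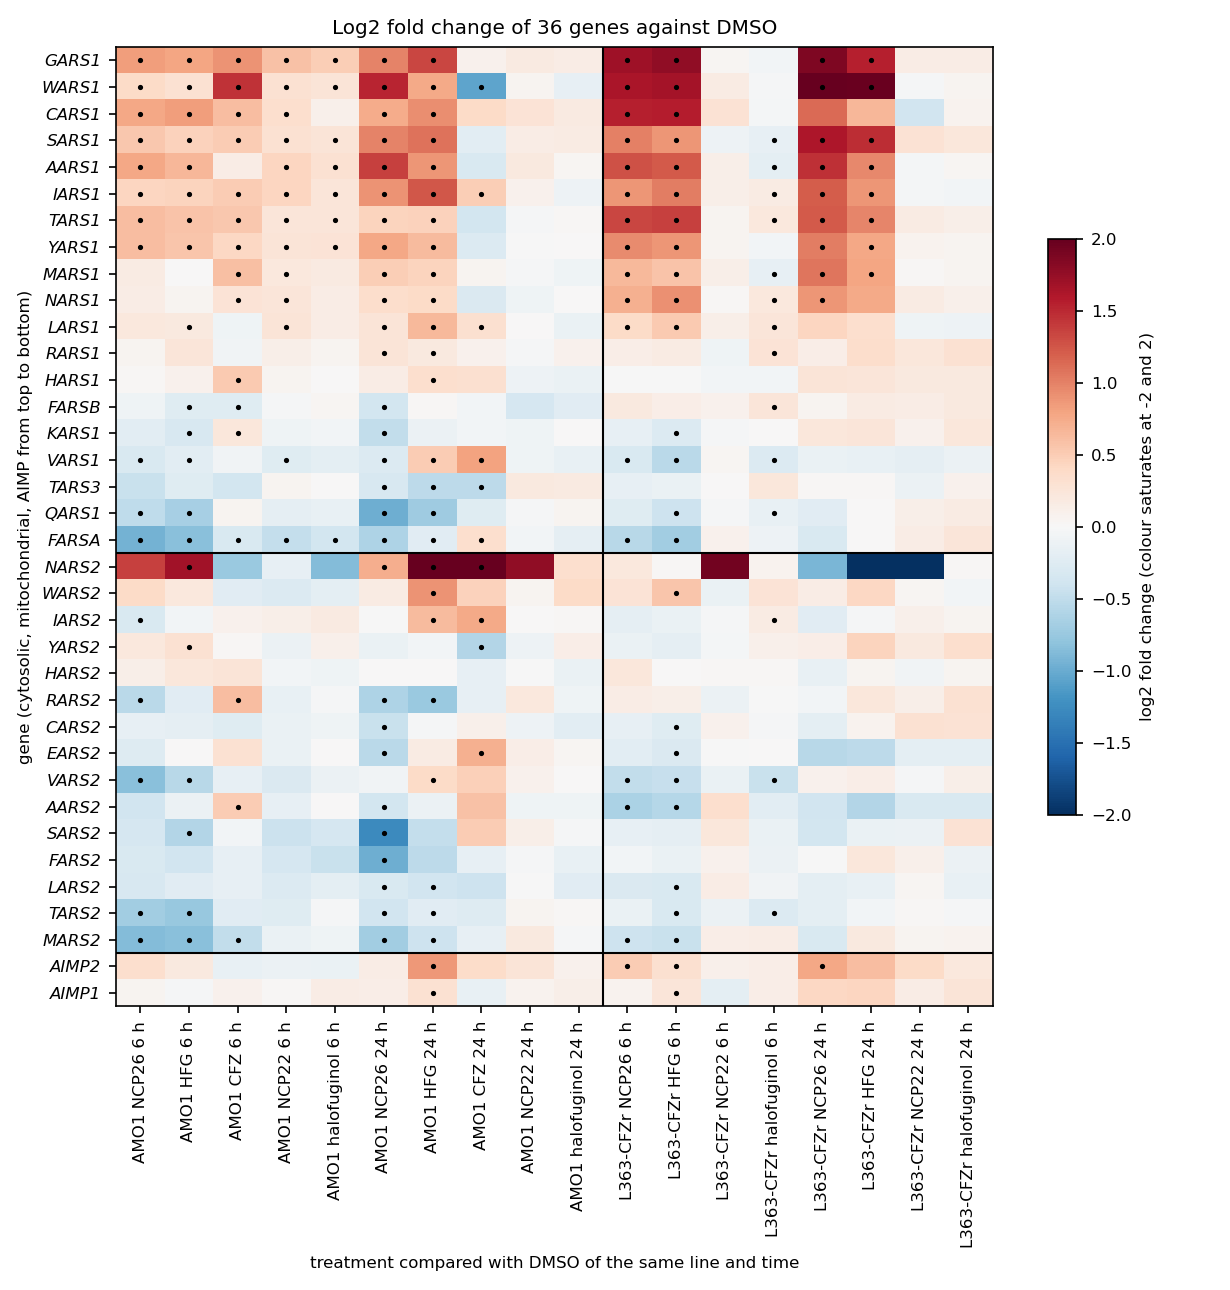
Heat map of the log2 fold change of the 36 genes (rows, grouped as cytosolic, mitochondrial and scaffold) in the 18 comparisons of a compound with DMSO (columns). Colour runs from -2 to 2 and saturates there, and a dot marks an edgeR adjusted p under 0.05. The cytosolic block shows most of the rises with NCP26 and HFG, up to 2.58 for *WARS1* in L363-CFZr at 24 h, whereas NCP22 carries no dot at 24 h in either line.

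Of the 8 comparisons of NCP26 or HFG with DMSO, *WARS1*, *GARS1*, *AARS1*, *SARS1*, *IARS1*, *TARS1* and *YARS1* passed upwards in 8, with median fold changes of 1.58, 1.45, 1.09, 1.00, 0.89, 0.79 and 0.77. *WARS1* was also the most variable of them, at 0.30 to 2.58, whereas *YARS1* (tyrosyl) lay between 0.56 and 1.02. *CARS1* and *MARS1* passed in 6 comparisons, and *NARS1* and *LARS1* in 5. The 8 comparisons rest on 4 sets of DMSO libraries.

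**Figure D2:**
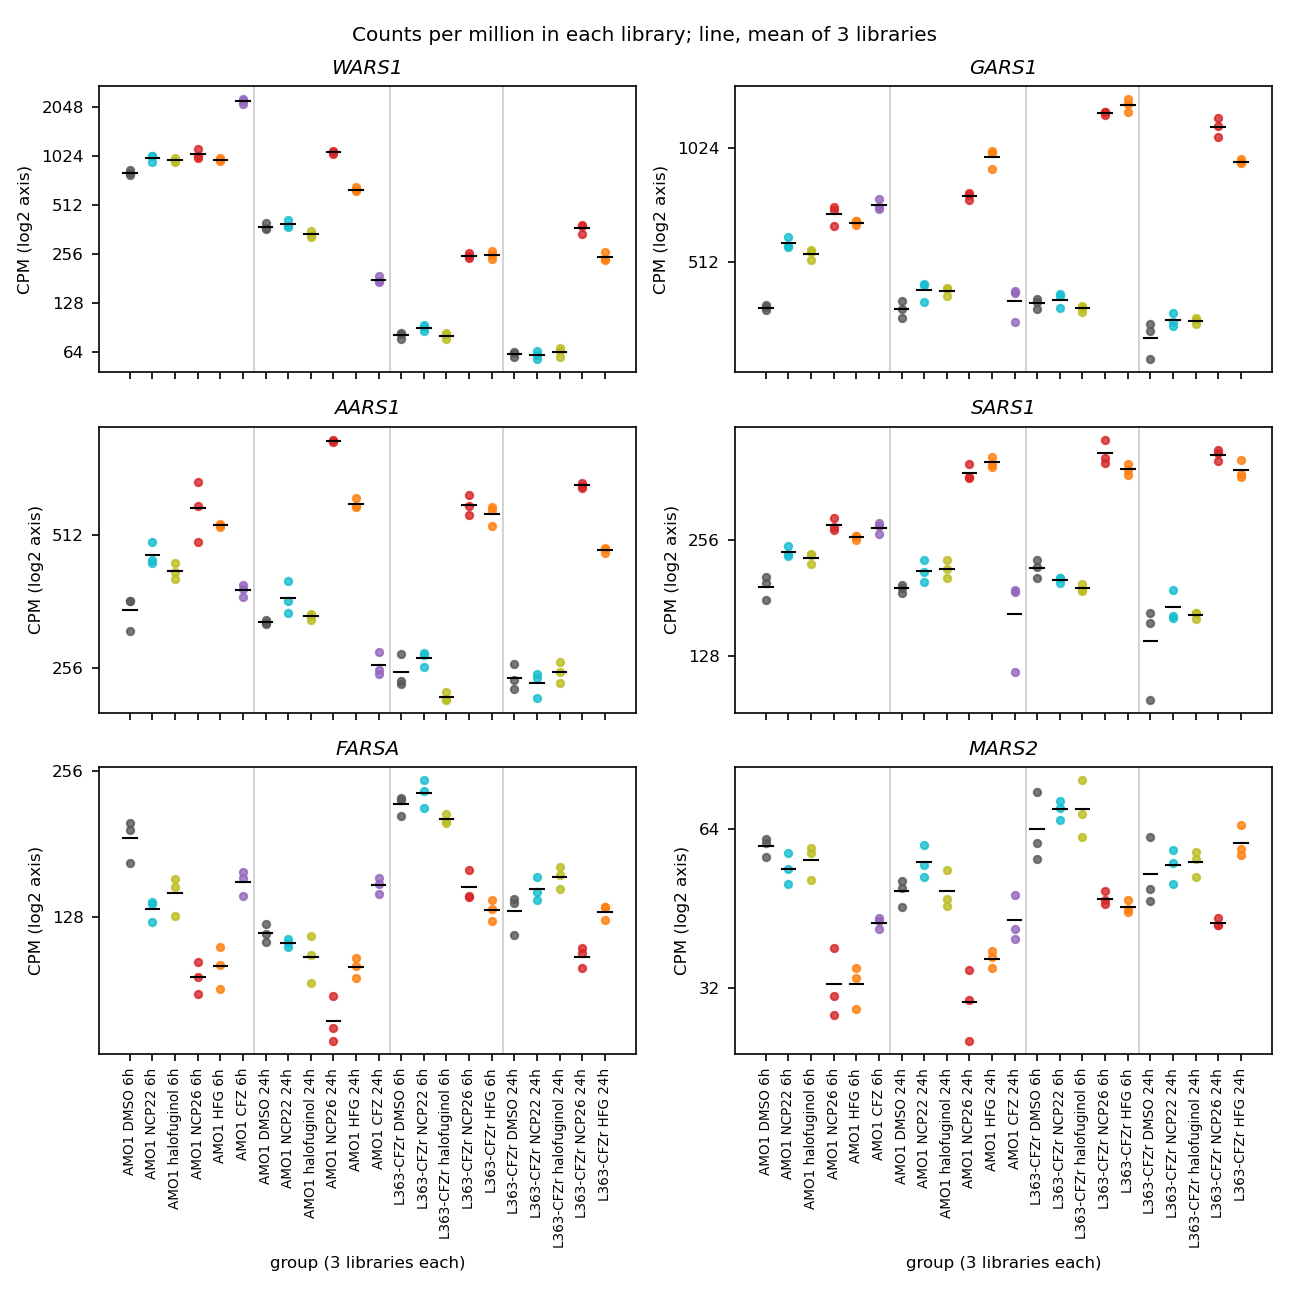
Library-scaled counts (CPM, log2 axis) of *WARS1*, *GARS1*, *AARS1*, *SARS1*, *FARSA* and *MARS2* in each of the 66 libraries, by group. Each point is 1 library. *WARS1* reached 2285.4 CPM in AMO1 with CFZ at 6 h and was lowest, at 57.4 CPM, in L363-CFZr with NCP22 at 24 h, while *MARS2* stayed between 25.4 and 79.1 CPM.

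The size of the NCP26 effect was compared between lines as an interaction, in 1 fit of the 4 groups at each time. At 6 h, 5 of the 36 genes had a more positive log2 effect in L363-CFZr and 0 a more negative one, beside 1.96% and 0.752% of all genes. These were *WARS1* (difference of log2 effects 1.24 ± 0.13, adjusted p = 3.14e-05), *GARS1* (0.85 ± 0.12, 0.000753), *CARS1* (0.76 ± 0.17, 0.0243), *TARS1* (0.72 ± 0.12, 0.00354) and *NARS1* (0.54 ± 0.12, 0.0169). At 24 h, 6 were more positive and 0 more negative, beside 2.97% and 2.44%, namely *WARS1* (1.03 ± 0.13, adjusted p = 0.00117), *GARS1* (0.85 ± 0.15), *TARS1* (0.75 ± 0.17), *QARS1* (0.72 ± 0.14), *KARS1* (0.68 ± 0.18) and *MARS1* (0.56 ± 0.12). For *QARS1* and *KARS1* the effects were -0.98 and -0.49 in AMO1, and -0.23 and 0.23, not passing, in L363-CFZr. All 11 differences were in cytosolic genes, with *WARS1*, *GARS1* and *TARS1* present at both times. Mitochondrial differences of similar size, with wider SE, did not pass. They include *RARS2* at 6 h (0.68 ± 0.20), and *FARS2* (0.95 ± 0.36), *SARS2* (0.89 ± 0.36) and *NARS2* (-1.67 ± 1.42) at 24 h. At 24 h the AMO1 NCP26 and DMSO libraries are in different sample-number sets and those of L363-CFZr in 1 set, so the difference between lines and the set cannot be told apart. Without the libraries high in *OR1N1* the count was 15 at 24 h. At 6 h that left 1 AMO1 NCP26 library, so only the differences are given. They read 1.23 for *WARS1*, 0.77 for *GARS1*, 0.82 for *CARS1*, 0.69 for *TARS1* and 0.51 for *NARS1*. Leaving out 1 library brought the 6 h count to 3 (AMO1 DMSO replicate 1, or L363-CFZr DMSO replicate 1 or 3) and moved the 24 h count to 2 (AMO1 NCP26 replicate 1), 3 (AMO1 NCP26 replicate 2, or AMO1 DMSO replicate 1 or 3) or 12 (L363-CFZr DMSO replicate 2).

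Time was compared in the same way in AMO1, where the NCP26 and HFG libraries share the set of their controls at 6 h and not at 24 h. The NCP26 effect was more positive at 24 h than at 6 h for 5 genes and more negative for 2, beside 7.36% and 10.1% of all genes, with *WARS1* at 1.13 ± 0.10 (adjusted p = 7.71e-07), *VARS2* at 0.75, *AARS1* at 0.58, *IARS1* at 0.46 and *SARS1* at 0.44 on the first side, and *QARS1* at -0.47 and *SARS2* at -0.94 on the second. These are differences of effects, each taken against the DMSO libraries of its own time. For *WARS1* the DMSO level was itself lower at 24 h (141.7 CPM per kb) than at 6 h (306.0). Its NCP26 libraries overlapped between the times. The HFG effect was more positive for 18 genes and more negative for 1, beside 18.5% and 21%. The 18 included *VARS2* (0.97), *IARS1* (0.82), *VARS1* (0.76), *AIMP2* (0.72) and *SARS1* (0.65), and the other was the mitochondrial arginyl enzyme *RARS2* (-0.49). Leaving out the libraries high in *OR1N1* left 1 HFG library at 6 h, so only the differences are given. They read 0.7 for *VARS2*, 0.79 for *IARS1*, 0.86 for *VARS1*, 0.66 for *AIMP2*, 0.6 for *SARS1* and -0.37 for *RARS2*.

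**Figure D3:**
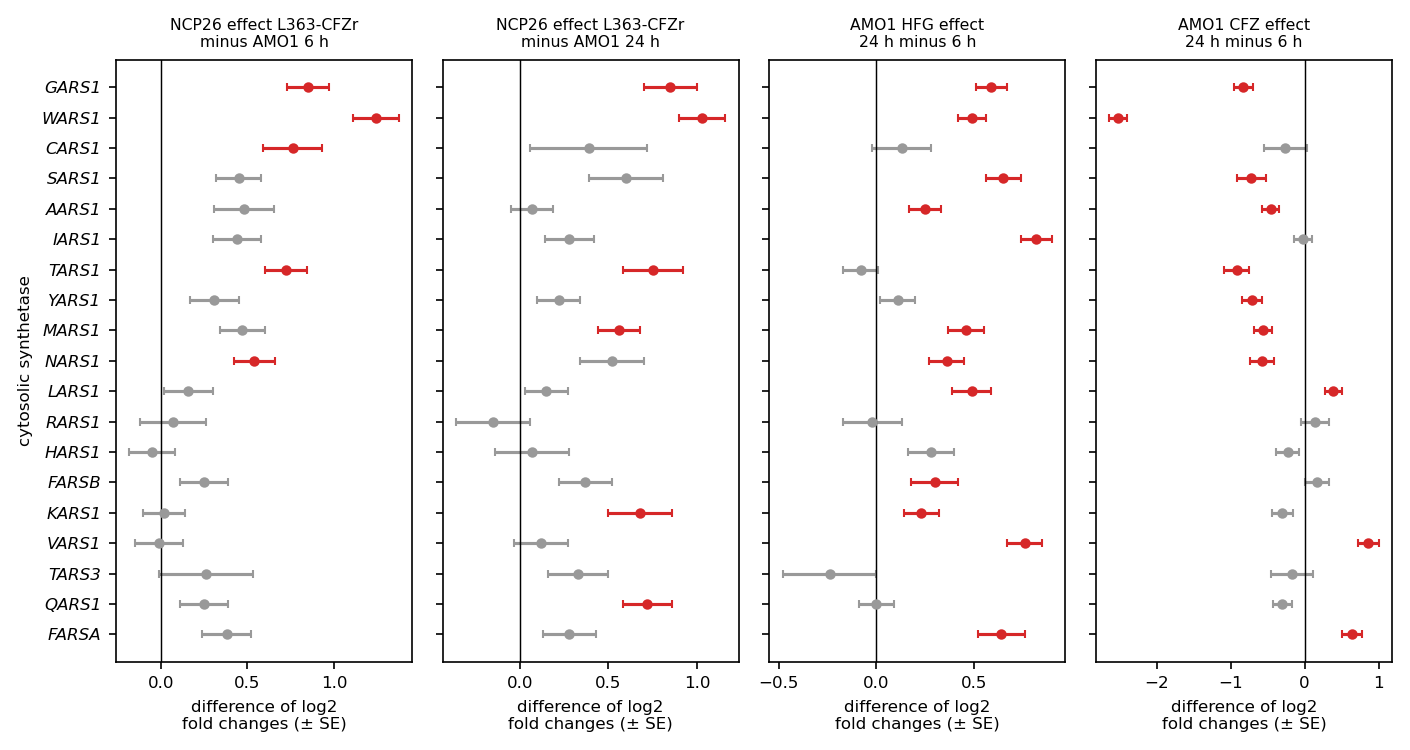
Difference of log2 effects ± SE for the 19 cytosolic genes in 4 panels: the NCP26 effect in L363-CFZr minus AMO1 at 6 h and at 24 h, and the HFG and CFZ effects in AMO1 at 24 h minus 6 h. Red marks an adjusted p under 0.05. *WARS1* has the largest positive difference in the 2 panels of lines (1.24 and 1.03) and the largest negative one for CFZ (-2.52).

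Some cytosolic genes fell while others rose. In AMO1 the number of cytosolic falls with NCP26 at 6 h and 24 h and with HFG at 6 h was near the share over all genes. The same held for NCP26 in L363-CFZr at 6 h. *FARSA*, encoding the α subunit of phenylalanyl-tRNA synthetase, fell in 6 of the 8 comparisons with NCP26 or HFG, and its level was 200.0, 193.2 and 165.5 CPM in AMO1 DMSO at 6 h, 88.5, 96.3 and 103.1 CPM with NCP26 and 91.0, 110.6 and 101.6 CPM with HFG. Treated and control libraries did not overlap, and the changes were -0.95 ± 0.11 (0.519-fold, adjusted p = 4.43e-05) and -0.84 ± 0.09, or -0.68 and -0.61 with an offset for transcript GC content, which is 61.3% for this gene. *FARSB*, the β subunit of the same enzyme, read 146.5, 156.4 and 169.4 CPM in DMSO and 159.1, 153.1 and 133.3 CPM with NCP26, where the groups overlapped and the change was -0.08 ± 0.11. It fell in 2 of the 8 comparisons, by 0.24 with HFG at 6 h and by 0.36 with NCP26 at 24 h, both in AMO1. *QARS1* fell in 5 comparisons, and in AMO1 at 24 h it went from 351.4, 376.8 and 372.3 CPM to 175.9, 195.3 and 191.3 CPM with NCP26 (-0.98 ± 0.05, adjusted p = 2.48e-16) and 214.6, 223.5 and 236.1 CPM with HFG. Neither treated group overlapped the controls. *KARS1* (lysyl) fell in 3 comparisons. The levels of *FARSA*, *QARS1*, *VARS1*, *IARS2*, *WARS2*, *VARS2*, *RARS2* and *MARS1* are given by library although the rule for named genes did not pick them, and they were chosen after their values were seen.

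*VARS1* (valyl) went in both directions. In AMO1 at 24 h it read 161.4, 158.8 and 157.2 CPM in DMSO and 233.7, 225.6 and 222.5 CPM with HFG, a rise of 0.51 ± 0.06, but fell by 0.27 with NCP26. At 6 h it fell by 0.31 with NCP26 and by 0.21 with HFG in AMO1, and by 0.30 and 0.54 in L363-CFZr. The transcript has a GC content of 61.7%, and with the GC offset the AMO1 values were -0.05 and 0.02 at 6 h, -0.09 for NCP26 at 24 h and 0.61 for HFG at 24 h.

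Over the 4 NCP26 comparisons with DMSO, the cytosolic genes with the smallest mean absolute change were *HARS1* (histidyl), *RARS1* (arginyl), *FARSB* and *TARS3*. *HARS1* read 113.4, 113.7 and 99.6 CPM in AMO1 DMSO at 6 h and 113.2, 110.8 and 107.3 CPM with NCP26, which overlapped, and its only rise in the 8 comparisons was with HFG in AMO1 at 24 h (0.33 ± 0.09, adjusted p = 0.00283). *RARS1* rose in 2 comparisons, both in AMO1 at 24 h, from 80.7, 76.5 and 81.0 CPM to 91.1, 98.2 and 95.9 CPM with NCP26 (0.26 ± 0.07) and 86.7, 91.1 and 92.5 CPM with HFG (0.19 ± 0.08). *TARS3* fell there from 35.9, 32.4 and 31.7 CPM to 24.4, 28.4 and 26.7 CPM with NCP26 (-0.32 ± 0.12) and 24.8, 22.8 and 21.9 CPM with HFG (-0.53 ± 0.13), without overlap, whereas *TARS1*, the main cytosolic threonyl enzyme, rose.

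The cytosolic genes were also divided into the 6 of the multisynthetase complex and the 13 outside it. With NCP26, 1 of the complex rose and 1 fell in AMO1 at 6 h, compared with 7 and 2 outside, beside 18.1% and 19.2% of all genes. At 24 h 4 rose and 2 fell, compared with 8 and 4, beside 29.8% and 30.9%. In L363-CFZr 3 rose and 0 fell at 6 h, compared with 8 and 2, beside 9.81% and 8.99%, and 2 rose and 0 fell at 24 h, compared with 7 and 0, beside 2.71% and 4.38%. The complex in AMO1 at 6 h and its falls at 24 h are near the share over all genes. The median changes in L363-CFZr were 0.26 for the complex and 0.94 outside it at 6 h, and 0.33 and 1.02 at 24 h. The difference between these lists was not tested. Within the complex, *IARS1* rose in all 8 comparisons with NCP26 or HFG and *MARS1* in 6, reaching 380.0, 355.1 and 360.1 CPM with NCP26 in L363-CFZr at 24 h from 176.1, 176.8 and 171.3 CPM in DMSO, while *QARS1* and *KARS1* fell or did not pass the test.

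Of the 15 mitochondrial genes, 0 rose and 5 fell with NCP26 in AMO1 at 6 h, beside 18.1% and 19.2% of all genes, and 2 rose and 4 fell with HFG, beside 27.7% and 26.6%. At 24 h 1 rose and 9 fell with NCP26, beside 29.8% and 30.9%, and 4 rose and 4 fell with HFG, beside 28.5% and 30.5%. The HFG numbers at 24 h and the HFG falls at 6 h are near the share over all genes. The 1 rise with NCP26 at 24 h was *NARS2*, which was also among the rises with HFG at 6 h and 24 h. No direction is drawn for this gene, as described below. In L363-CFZr at 6 h 0 rose and 3 fell with NCP26, beside 9.81% and 8.99%, and 1 rose and 7 fell with HFG, beside 26.9% and 27.5%, and at 24 h 0 passed with either compound. At 24 h in L363-CFZr, 1 mitochondrial gene had an unadjusted p under 0.05 with each compound and 0 passed with DESeq2. The mitochondrial medians were -0.31, -0.18, -0.37 and -0.05 in AMO1 and -0.16, -0.18, -0.20 and 0.06 in L363-CFZr, in the same order.

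*MARS2*, the mitochondrial methionyl enzyme, fell in 6 of the 8 comparisons. In AMO1 at 6 h it read 56.5, 61.2 and 60.2 CPM in DMSO, 30.9, 28.4 and 38.0 CPM with NCP26 and 34.9, 29.1 and 33.4 CPM with HFG. The groups did not overlap, and the changes were -0.86 ± 0.13 (0.551-fold, adjusted p = 0.000349) and -0.84 ± 0.11 (9.81e-06). In L363-CFZr at 6 h it went from 75.0, 56.2 and 60.2 CPM to 46, 48.8 and 46.8 CPM with NCP26 (-0.41 ± 0.13, adjusted p = 0.0469). Its cytosolic counterpart *MARS1* was at 0.16 and 0.01 in AMO1 at 6 h, not passing, and rose in L363-CFZr. *SARS2*, the mitochondrial seryl enzyme, read 18.3, 14.6 and 12.2 CPM in AMO1 DMSO at 24 h and 4.38, 8.48 and 5.46 CPM with NCP26 (0.415-fold, -1.27 ± 0.23, adjusted p = 2.74e-05), and these rest on 50 to 62 counts per control library and 14 to 26 per treated one. Of its transcript, 43.7% of 31-base words also occur in other genes, so that its counts are uncertain. With HFG it fell at 6 h (-0.58 ± 0.15) and was -0.48 ± 0.22 at 24 h, with overlapping groups.

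*AARS2* (mitochondrial alanyl) fell in L363-CFZr at 6 h from 32.6, 33.1 and 32.7 CPM to 21.5, 17.1 and 23.3 CPM with NCP26 (-0.64 ± 0.15) and 18.9, 24.1 and 22.5 CPM with HFG (-0.57 ± 0.13), or -0.45 and -0.25 with the GC offset. All treated libraries were below all controls. *TARS2* (threonyl) fell in 5 of the 8 comparisons and *VARS2* (valyl) in 4, with *VARS2* at 43.6, 43.7 and 41.1 CPM in AMO1 DMSO at 6 h and 22.7, 22.2 and 27 CPM with NCP26. *VARS2* shares 62% of its 31-base words with other genes. *LARS2* and *RARS2* fell in 3 comparisons each, and *CARS2* and *EARS2* in 2. *RARS2* in AMO1 at 24 h went from 28.2, 23.4 and 26.7 CPM in DMSO to 14.1, 16.6 and 15.6 CPM with HFG. The rises among mitochondrial genes were *IARS2* with HFG in AMO1 at 24 h (0.64, from 177.5, 149.1 and 157.0 CPM to 241.0, 245.9 and 261.3 CPM), *WARS2* in 2 comparisons, *YARS2* and *VARS2* in 1 each and *NARS2* in 3. The levels of *NARS2* varied widely between replicates, and no direction is drawn for it. *HARS2* passed in 0 of the 18 comparisons with DMSO, and its group means spanned 51.9 to 72.8 CPM.

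Of the scaffolds, *AIMP2* rose in 4 of the 8 comparisons and *AIMP1* in 2. *AIMP2* read 20.9, 21.5 and 27.7 CPM in AMO1 DMSO at 24 h, 27.2, 24.5 and 27.6 CPM with NCP26, which overlapped, and 42.2, 43.9 and 44.1 CPM with HFG, which did not (1.83-fold, 0.87 ± 0.13, adjusted p = 1.27e-05). In L363-CFZr at 24 h it rose from 37.8, 28.8 and 38.2 CPM to 57.3, 59.5 and 60.9 CPM with NCP26 (0.77 ± 0.15, adjusted p = 0.0249). *AIMP1* read 59.1, 60.0 and 51.7 CPM in AMO1 DMSO at 24 h and 73.2, 61.7 and 75.6 CPM with HFG (0.31 ± 0.10, adjusted p = 0.0124). Its rise with HFG in L363-CFZr at 6 h was 0.24 ± 0.09, which became -0.30 with the GC offset, and the transcript has a GC content of 35.2%.

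CFZ, which does not target a synthetase, was given to AMO1 alone. At 6 h 11 cytosolic genes rose and 2 fell, beside 14.1% and 12.8% of 10470 genes, with a median of 0.28 against -0.01 over all genes. Of the mitochondrial genes 2 rose (*AARS2* at 0.50 and *RARS2* at 0.61) and 1 fell (*MARS2* at -0.49). *WARS1* read 2232.5, 2133.9 and 2285.4 CPM, far above the DMSO values of 841.7, 798.3 and 782.5 CPM (2.74-fold, 1.45 ± 0.05, adjusted p = 2.38e-15), and these 3 libraries were the highest of all 66 for this gene. *GARS1* rose to 716.6, 706.8 and 752.3 CPM (0.90 ± 0.06), *MARS1* to 621.8, 619.4 and 618.7 CPM from 431.8, 415.8 and 375.3 CPM (0.60), and *HARS1* to 155.3, 157.1 and 162.5 CPM (0.53 ± 0.08). *AARS1* was at 0.15 ± 0.07 (adjusted p = 0.123).

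After 24 h of CFZ 4 cytosolic genes rose and 2 fell, beside 13.1% and 14% of 10674 genes, and the median was -0.05, against 0.01 over all genes. *WARS1* was below its controls, at 187.1, 174.9 and 170.4 CPM compared with 367.2, 361.7 and 392.9 CPM (0.481-fold, -1.06 ± 0.10, adjusted p = 0.000304). *GARS1*, at 427.4, 354.2 and 422.9 CPM, overlapped DMSO (0.09 ± 0.11). *VARS1* rose to 249.8, 319.3 and 250.6 CPM (0.80 ± 0.13), *IARS1* to 321.9, 329.7 and 342.0 CPM (0.49 ± 0.10), and *FARSA* and *LARS1* by 0.34 and 0.32, while *TARS3* fell by 0.52. As a test of the difference, the CFZ effect was more positive at 24 h than at 6 h for 6 of the 36 genes and more negative for 10, beside 8.05% and 11.6% of all genes. The difference was -2.52 ± 0.12 for *WARS1* (adjusted p = 3.52e-08), -0.92 for *TARS1*, -0.83 for *GARS1*, -0.72 for *SARS1*, -0.71 for *YARS1* and -0.46 for *AARS1*, and 0.86 for *VARS1* and 0.64 for *FARSA*. CFZ replicate 2 at 24 h stood apart, with *SARS1* at 187.4, 116.2 and 189.9 CPM in replicates 1 to 3, and without it 21 genes passed against DMSO in place of 10. Without DMSO replicate 1, 2 or 3 the number was 4, 5 or 4. CFZ replicates 2 and 3 at 24 h are in another sample-number set than their DMSO controls and the 6 h libraries. The part of the set in the difference between the times was not tested.

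In AMO1, NCP22 at 6 h raised 11 and lowered 2, beside 7.42% and 6.08% of 10693 genes, and halofuginol raised 7 and lowered 1, beside 2.6% and 1.02% of 10593 genes. The cytosolic medians were 0.24 and 0.15, against -0.01 and -0.01, and 0 mitochondrial or scaffold genes passed by edgeR or DESeq2, with 4 mitochondrial genes at an unadjusted p under 0.05 for NCP22 and 2 for halofuginol. *GARS1* read 595.3, 563.2 and 558.6 CPM with NCP22 (0.58 ± 0.06, adjusted p = 1.12e-06) and 543.8, 550.9 and 518.7 CPM with halofuginol (0.49 ± 0.06, 3.69e-05), all above the DMSO libraries. *AARS1* rose by 0.43 ± 0.07 and 0.30 ± 0.07, and *FARSA* fell by 0.48 and 0.37. Leaving out 1 library moved the NCP22 count of 13 to 6 (DMSO replicate 2 or NCP22 replicate 1) or 8 (NCP22 replicate 3). The halofuginol count of 8 moved to 4 (DMSO replicate 1 or 2, or halofuginol replicate 2), 13 (DMSO replicate 3), 2 (halofuginol replicate 1) or 1 (halofuginol replicate 3).

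At 24 h in AMO1, 0 of the 36 genes passed with NCP22 by edgeR (0.0% of 10781 genes rose and 0.0% fell, with 5 of the 36 at an unadjusted p under 0.05 and 0 by DESeq2) and 0 with halofuginol (0.0731% and 0.11% of 10943, with 8 and 0). *WARS1* differed from DMSO by 0.06 with NCP22 (95% interval -0.08 to 0.21) and by -0.16 with halofuginol (-0.28 to -0.04). In L363-CFZr, NCP22 gave 0 at 6 h (0.0% and 0.0% of 10235, with 2 and 0) and 0 at 24 h (0.0% and 0.0% of 10727, with 1 and 0), and halofuginol 0 at 24 h (0.0% and 0.0% of 10531, with 0 and 0). The intervals for *WARS1* at 24 h were -0.28 to 0.24 with NCP22 and -0.23 to 0.32 with halofuginol. Halofuginol at 6 h in L363-CFZr gave 6 cytosolic rises and 5 falls, 1 mitochondrial rise and 2 falls, beside 13.6% and 12.2% of 10519 genes, with a cytosolic median of -0.04 and values between -0.45 and 0.28 for the 14 that passed. These libraries and their controls lie in different sample-number sets. With a GC offset 0 genes passed. A fit of all groups of L363-CFZr together gave 3 genes, and 0 with a term for the set added. Leaving out 1 library gave 8 (DMSO replicate 3), 7 (halofuginol replicate 1 or 3) or 4 (halofuginol replicate 2).

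NCP26 and HFG were then each compared directly with the related compound at the same dose and time, in 11 compound pairs in all, with adjustment over all genes within a pair. In AMO1 at 6 h NCP26 exceeded NCP22 for 6 cytosolic genes and was lower for 2, beside 12.6% and 12.2% of all genes, and at 24 h for 13 and 4, beside 26.3% and 25.7%. In L363-CFZr it was higher for 10 and lower for 2 at 6 h, beside 9.96% and 10.4%, and for 11 and 2 at 24 h, beside 16.2% and 17.9%. The difference for *WARS1* was 0.11 ± 0.09 in AMO1 at 6 h (95% interval -0.09 to 0.31, adjusted p = 0.427), 1.48 ± 0.06 at 24 h, 1.48 ± 0.10 in L363-CFZr at 6 h and 2.60 ± 0.09 at 24 h. The 3 NCP22 libraries in AMO1 at 6 h read 1013.1, 1018.0 and 935.1 CPM, overlapping NCP26. Leaving out NCP22 replicate 1 or 2 brought the count over all 36 genes in AMO1 at 6 h from 13 to 7 or 6.

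HFG and halofuginol differ by the ketone that is an alcohol in halofuginol. HFG was higher in AMO1 at 6 h for 7 cytosolic genes and lower for 5, beside 25.6% and 26.1%, and at 24 h for 14 and 2, beside 27.9% and 28.7%. In L363-CFZr it was higher for 11 and lower for 5 at 6 h, beside 23.1% and 24.2%, and for 11 and 2 at 24 h, beside 9.59% and 12.3%. For *GARS1* the differences were 0.30 ± 0.05 and 1.20 ± 0.06 in AMO1 and 1.83 ± 0.04 and 1.40 ± 0.05 in L363-CFZr. For *WARS1* the difference in AMO1 at 6 h was 0.04 ± 0.04, with a 95% interval of -0.05 to 0.13, and those at the other 3 points were 0.93, 1.70 and 1.93.

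NCP26 and HFG themselves were compared at 3 points. At 6 h in AMO1, 0 of the 36 genes passed by edgeR, beside 0.0651% and 0.195% of all genes, with 2 at an unadjusted p under 0.05 and 0 by DESeq2. The 95% intervals of the difference were -0.09 to 0.30 for *WARS1*, -0.12 to 0.26 for *GARS1*, -0.13 to 0.37 for *AARS1*, -0.22 to 0.22 for *IARS1* and -0.30 to 0.30 for *MARS2*. At 24 h in AMO1 NCP26 was higher for 3 genes and lower for 9 among the cytosolic ones, beside 22.6% and 22.4% of all genes, and lower for 7 of the mitochondrial genes and for *AIMP2*. The 3 were *WARS1* (0.75 ± 0.04, adjusted p = 2.6e-11), *AARS1* (0.46 ± 0.04) and *YARS1* (0.12), and the lower ones included *VARS1* (-0.80), *LARS1* (-0.41), *GARS1* (-0.36 ± 0.04), *IARS1* (-0.35), *SARS2* (-0.81), *EARS2* (-0.72) and *AIMP2* (-0.73). In L363-CFZr at 24 h NCP26 was higher for 8 cytosolic genes and lower for 2, beside 5.52% and 7.43%, with *WARS1* at 0.60 ± 0.07, *AARS1* at 0.49 ± 0.05, *CARS1* at 0.47 and *GARS1* at 0.32 ± 0.05 higher and *FARSA* at -0.30, *QARS1* at -0.23 and *MARS2* at -0.49 lower. Thus *GARS1* and *IARS1* were lower with NCP26 than with HFG in AMO1 and higher in L363-CFZr, although the difference between the lines was not tested. Leaving out HFG replicate 2 brought the L363-CFZr count from 11 to 6.

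Between the untreated lines, 5 cytosolic genes were higher and 8 lower in L363-CFZr at 6 h, beside 28.9% and 31.3% of all genes, and 2 higher and 5 lower at 24 h, beside 19.4% and 20.5%. By far the widest gap was in *WARS1*, at 83.6, 77.0 and 82.5 CPM in L363-CFZr and 841.7, 798.3 and 782.5 CPM in AMO1 at 6 h (0.099-fold, -3.34 ± 0.07, adjusted p = 1.83e-18), and 0.166-fold at 24 h (-2.59 ± 0.12, 1.22e-05). Even the highest L363-CFZr libraries with NCP26 at 24 h, at 384.8 CPM, were near the AMO1 DMSO values of that time. *IARS2* was higher in L363-CFZr, at 342.8, 348.4 and 326.1 CPM compared with 139.5, 145.2 and 178.6 CPM at 6 h (1.11 ± 0.09), and by 1.20 ± 0.12 at 24 h. *VARS1* was higher by 0.71 and 0.94, and *LARS1* by 0.30 and 0.54. *TARS1* (-0.71 and -0.83), *MARS1* (-0.56 and -0.69), *AARS1* (-0.48 and -0.41), *YARS1* (-0.33 and -0.59), *LARS2* (-0.97 and -0.74) and *RARS2* (-0.85 and -0.89) were lower at both times, and *AIMP2* was higher (0.67 and 0.58). The lines differ in origin, in carfilzomib resistance and in sample-number set, and these cannot be told apart. At 24 h the count of 14 over all 36 genes was 22 without L363-CFZr DMSO replicate 2 and 9 without AMO1 DMSO replicate 1 or 2.

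*NARS2*, encoding mitochondrial asparaginyl-tRNA synthetase (ENSG00000137513, GRCh38 chromosome 11, 78435620 to 78575194, minus strand), had the widest spread within groups of all members. Its level was 69.9 to 2010.8 CPM over the 66 libraries, with a median of 94.9 CPM. In AMO1 at 24 h it read 77.0, 87.6 and 85.6 CPM in DMSO, 166.8, 2010.8 and 217.9 CPM with CFZ and 1158.4, 196.6 and 242.4 CPM with HFG. In L363-CFZr at 24 h the values were 77.6, 1600.5 and 97.4 CPM in DMSO, 744.5, 94.5 and 87.7 CPM with NCP26 and 179.4, 104.3 and 1519.6 CPM with halofuginol. High values thus occurred in DMSO and treated groups alike, often in a single library of a group. In AMO1 at 24 h every CFZ and HFG library was above DMSO. In AMO1 at 6 h, NCP26 replicates 1 and 3 read 465.0 and 723.6 CPM, and HFG replicates 2 and 3 read 1015.0 and 435.5 CPM. The deviations of *NARS2* from its group means had an SD of 1.23 log2 units, against a median of 0.18 over genes, and 29 genes had an SD as large or larger.

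Across the 66 libraries, which share the depth of each library over all genes, the deviations of *NARS2* from its group means followed those of *OR1N1* with Pearson's r = 0.994 and those of *NLRP13* (0.993), *GRIN2D* (0.993), *PSD4* (0.990) and *ZNF750* (0.989). In all, 41 of 10161 genes with a mean over 5 CPM had r above 0.9. *OR1N1* ranged from 37.0 to 2301.5 CPM, and 13 libraries exceeded 250 CPM. Among the other members, r was 0.84 for *CARS1*, -0.72 for *NARS1*, -0.70 for *TARS1*, -0.65 for *IARS2* and -0.63 for *GARS1* and *RARS1*. *NARS2* passed the test with HFG at 6 h (1.68 ± 0.56, adjusted p = 0.0197, with overlapping groups) and with NCP26 (0.73 ± 0.11), HFG (2.63 ± 0.44) and CFZ (3.30 ± 0.91) at 24 h, all in AMO1. With the *OR1N1* level as a covariate these became -0.04, -0.19, -0.04 and -0.15, and without the libraries above 250 CPM the values were 0.16 for HFG at 6 h, 1.40 for HFG and 1.20 for CFZ at 24 h, and 0.73 for NCP26 at 24 h, where no library was above 250 CPM. No direction for *NARS2* is drawn from these fits.

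**Figure D4:**
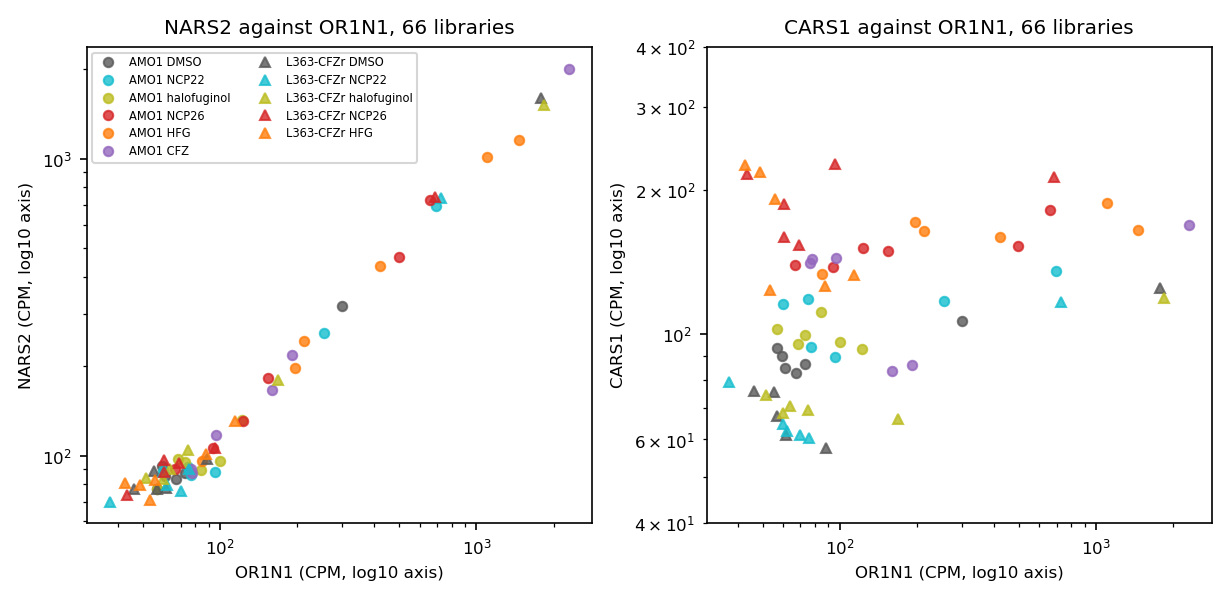
*NARS2* and *CARS1* (CPM, log10 axis) against *OR1N1* (CPM, log10 axis), with 1 point for each of the 66 libraries. *NARS2* climbs with *OR1N1* from 69.9 to 2010.8 CPM, and the libraries above 250 CPM of *OR1N1* belong to 11 groups of both lines.

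Genes of the amino acid response other than synthetases were counted in the same fits, with 31 of a list of 32 tested. With NCP26, 20 rose and 3 fell in AMO1 at 6 h (median 0.74), beside 18.1% and 19.2% of all genes, and 23 rose and 5 fell at 24 h (1.00), beside 29.8% and 30.9%. In L363-CFZr 28 rose and 0 fell at 6 h (1.94), beside 9.81% and 8.99%, and 26 and 0 at 24 h (1.75), beside 2.71% and 4.38%. The largest changes in AMO1 at 6 h were in *ATF3*, a stress-induced transcription factor (2.92), *SLC7A11*, the cystine transporter (2.30), and *STC2* (2.06), and the lowest values in *DDIT4* (-0.97), *ALDH18A1* (-0.70) and *ATF5* (-0.38). In L363-CFZr at 24 h *CHAC1*, a glutathione-degrading enzyme, was at 4.11, *INHBE* at 3.05 and *SESN2* at 2.98, and the lowest values were *ALDH18A1* at -0.12, *SLC38A2* at 0.21 and *DDIT4* at 0.24, none of which passed. With CFZ 25 rose and 0 fell at 6 h (median 0.69), beside 14.1% and 12.8%, and 5 rose and 6 fell at 24 h (-0.11), beside 13.1% and 14%.

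Of 13 genes for tRNA handling and sensing, all tested, 3 rose and 1 fell with NCP26 in AMO1 at 6 h, beside 18.1% and 19.2% of all genes, and 6 and 3 at 24 h, beside 29.8% and 30.9%. In L363-CFZr 5 rose and 1 fell at 6 h, beside 9.81% and 8.99%, and 2 and 0 at 24 h, beside 2.71% and 4.38%. The rises in AMO1 at 6 h are near the share over all genes. The highest in AMO1 at 6 h were *XPOT*, which exports tRNAs from the nucleus (0.73), *TRNT1*, which adds their CCA end (0.45), and *EEF1E1*, a further component of the multisynthetase complex (0.37, adjusted p = 0.113 by edgeR). The lowest were *GCN1*, an activator of GCN2 (-0.63), *MTFMT*, which formylates mitochondrial methionyl-tRNA (-0.35, adjusted p = 0.17), and *GATB* (-0.16, 0.504). In L363-CFZr at 24 h *XPOT* was at 1.55 and *EPRS1*, the bifunctional glutamyl-prolyl enzyme, at 0.75, and both passed. The other extremes at that time, *EEF1E1* at 0.75, *GCN1* at -0.49, *GATB* at -0.33 and *MTFMT* at -0.07, did not.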

How the data were processed

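Poly(A) RNA of each sample was made into directional libraries (NEBNext Ultra II) and sequenced paired-end. Samples of 6 h were frozen overnight before extraction and those of 24 h were kept on ice. The authors pseudo-aligned reads with kallisto, using words of 31 bases, and deposited 1 table of whole-number gene counts, not normalized. The study's methods name GRCh38 and the submitters' processing notes hg19, so genome positions here come from the reference annotation and not from the table. The sources used here give neither the kallisto version, nor the annotation, nor how transcripts were summed to genes. Reads shared between genes are divided by estimation, which limits genes with shared sequence.

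Groups came from the sample labels. Each comparison was fitted on its own groups with edgeR 4.0.16 (R 4.3.3, TMM scaling, filterByExpr at min.count 10 and min.total.count 15, quasi-likelihood test, Benjamini-Hochberg adjustment over all genes, threshold 0.05), and differences of effects as interactions in 1 fit. SE was obtained from the fold change and the square root of the F statistic, and intervals are 95%. CPM used TMM-scaled library sizes over all 66 libraries. The alternatives used edgeR or DESeq2 1.42.0. The fits were also run on simulated counts, with 1 spread for all genes and no library standing apart. Those counts do not cover libraries that stood apart or were high in *OR1N1*. The package limma 3.58.1 was loaded, but no test of it was run. Named genes were the 8 cytosolic genes with the highest mean log2 fold change over the 4 NCP26 comparisons with DMSO, the 4 with the smallest mean absolute change, the 4 mitochondrial genes with the largest mean absolute change, the scaffolds and *NARS2*, and from the other lists the 3 highest and 3 lowest changes. The members and lists were chosen with earlier results of these data known, and the *OR1N1* alternatives and the shorter promoter string after seeing the data.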

Additional observations from a re-analysis of the deposited data

Results flagged for a closer look

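A test of the difference between effects singled out 5 contrasts and 28 values of named genes within them. The NCP26 effect differed between L363-CFZr and AMO1 for 5 of the 36 genes at 6 h, among them *WARS1* (1.24 on the log2 scale), *GARS1* (0.85), *CARS1* (0.76) and *TARS1* (0.72), and for 6 at 24 h, among them *WARS1* (1.03), *GARS1* (0.85) and *TARS1* (0.75). All of these had a more positive log2 effect in L363-CFZr. Of all genes tested, 1.96% had a more positive and 0.752% a more negative effect there at 6 h. At 24 h the shares were 2.97% and 2.44%. Among the 6 were *QARS1* (0.72) and *KARS1* (0.68), whose effect in AMO1 was a fall. *WARS1* in L363-CFZr DMSO was at 0.099-fold the AMO1 level at 6 h and 0.166-fold at 24 h.

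In AMO1 the NCP26 effect differed between 24 h and 6 h for 7 genes, beside 7.36% (more positive) and 10.1% (more negative) of all genes. In both directions together, the 7 are near the share over all genes. *WARS1* (1.13), *AARS1* (0.58), *IARS1* (0.46) and *SARS1* (0.44) had a more positive effect at 24 h, while that of *SARS2* was lower (-0.94). The HFG effect differed for 19 genes, including *IARS1* (0.82), *AIMP2* (0.72), *SARS1* (0.65), *GARS1* (0.59), *WARS1* (0.49), *MARS2* (0.45), *AIMP1* (0.37), *FARSB* (0.30) and *AARS1* (0.25), each with a more positive effect at 24 h. For *WARS1* the DMSO level was itself lower at 24 h than at 6 h. The treated and DMSO libraries of 24 h come from different sample-number sets, and the part of the set in these differences was not tested.

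The CFZ effect differed between the times for 16 genes, beside 8.05% (more positive) and 11.6% (more negative) of all genes. It was lower at 24 h for *WARS1* (-2.52), *TARS1* (-0.92), *GARS1* (-0.83), *SARS1* (-0.72), *YARS1* (-0.71) and *AARS1* (-0.46), and higher for *NARS2* (4.01). For *NARS2* 1 of the 3 CFZ libraries at 24 h read 2010.8 CPM beside 166.8 and 217.9 CPM in the others, and *OR1N1* was at 2301.5 CPM in that library.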

How the results depend on the processing

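The counts below are of the 36 genes that passed, under each alternative. Leaving out the libraries high in *OR1N1* (chosen after seeing the data) left 1 NCP26 and 1 HFG library in AMO1 at 6 h. No counts are given for the comparisons that use those groups. Among the others, the count in AMO1 went from 8 to 4 for halofuginol at 6 h, 10 to 21 for CFZ at 24 h and 0 to 1 for NCP22 at 24 h. In L363-CFZr at 24 h the count went from 10 to 17 for NCP26 and 8 to 13 for HFG. Between the lines at 24 h the count went from 14 to 22, and for the difference in NCP26 effect at 24 h from 6 to 15. With *OR1N1* as a covariate (also added later) it was 5 for halofuginol at 6 h, 15, 17, 17 and 2 for NCP26, HFG, CFZ and NCP22 at 24 h in AMO1, 13 for HFG in L363-CFZr at 24 h and 8 for NCP26 against NCP22 in AMO1 at 6 h. With all groups of a line in 1 fit, AMO1 gave 8 (NCP22, 6 h), 3 (halofuginol, 6 h) and 21 (CFZ, 24 h), and L363-CFZr 3 (halofuginol, 6 h), 16 (NCP26, 24 h) and 15 (HFG, 24 h). A set term added to that fit gave 8, 3, 17 and 17 in AMO1 (NCP22 and halofuginol at 6 h, NCP26 and HFG at 24 h). In L363-CFZr it gave 16, 0, 17 and 15 (HFG and halofuginol at 6 h, NCP26 and HFG at 24 h). With no filter, 1 gene passed for NCP22 and for halofuginol in AMO1 at 24 h and for NCP22 in L363-CFZr at 6 h. The GC offset gave 0 for halofuginol in L363-CFZr at 6 h. DESeq2's Wald test moved none of 36 counts, and its size factors none of the 19 to which they were applied, by more than 1.5 times. The cause of these changes was not tested.

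The main fits did not pair samples by replicate number, since 0 of 31 comparisons had every pairwise correlation of deviations over 0.1. That limit is arbitrary, so the check cannot show that the samples were unpaired. A replicate block gave 1 for NCP22 in AMO1 at 24 h and 2 for HFG in L363-CFZr at 24 h, and the other 34 counts stayed within 1.5 times.

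Leaving out 1 library at a time gave, in AMO1, 6 to 17 for NCP22 and 1 to 13 for halofuginol at 6 h, 4 to 21 for CFZ and 0 to 1 for NCP22 at 24 h, and 6 to 15 for NCP26 against NCP22 at 6 h. In L363-CFZr it gave 11 to 20 for NCP26 and 4 to 14 for halofuginol at 6 h, 7 to 17 for NCP26, 1 to 13 for HFG and 6 to 13 for NCP26 against HFG at 24 h. The line comparison at 24 h ranged from 9 to 22, and the difference in NCP26 effect from 3 to 6 at 6 h and 2 to 12 at 24 h.

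Changes of direction occurred for *NARS2* with the *OR1N1* covariate in AMO1 (HFG at 6 h -0.04, and at 24 h NCP26 -0.19, HFG -0.04, CFZ -0.15 and NCP22 -0.40) and with the set term (NCP26 -2.03 and HFG -0.12 at 24 h), for *CARS1* (-0.44) and *AIMP1* (0.40) with CFZ at 24 h under the covariate, and for HFG in L363-CFZr at 6 h under the GC offset (*HARS1* 0.17, *FARSB* -0.20, *AIMP1* -0.30). Depth limits the least abundant genes, with 9 counts for *WARS2* in its lowest library.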
